A study of Mus musculus with 4 samples.

Results

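The genes described here make or use glutathione, remove peroxide and superoxide, or belong to the thioredoxin system and the NRF2 pathway. They were chosen by name, with earlier results of these data known, among them the high level of Gsto1. A gene was a member if its symbol fell in the Gst, Mgst, Gpx, Prdx, Sod or Txnrd families, or if it was 1 of 12 genes listed singly: Gsto1, Mgst1, Cat, Gclc, Gclm, Gss, Gsr, Nqo1, Hmox1, Txn1, Nfe2l2 and Keap1. In all, 50 of the 15816 genes in the deposited tables were members. All 50 were listed in each of the 4 libraries. Of these, 48 had a mean of at least 1 RPKM (reads per kilobase, scaled to gene length and to the mapped reads of the library) and were compared. The remaining pair, Gstm6 and Gstm7, averaged 0.798 and 0.709 RPKM, and the lowest members inside that limit were Gsto2 at 1.24 and Sod3 at 1.25 RPKM.

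The tissue was the lower eyelid of C57BL/6 animals, an inbred mouse strain, all WT by their labels. The question was how the lid, with its meibomian glands, differs with age. There was 1 library each from females of 2 years (old female), females of 3 months (young female), males of 2 years (old male) and males of 3 months (young male). The labels name no transgene or treatment and do not say how many animals a library holds. With 1 library a group, differences between 2 libraries could not be checked against replicates and carry no p-value.

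Glutathione is a small thiol peptide. Glutamate-cysteine ligase and glutathione synthetase make it, and glutathione reductase restores it after oxidation with NADPH. Glutathione S-transferases (GSTs) couple it to reactive compounds such as the aldehydes left by lipid peroxidation, and glutathione peroxidases spend it to reduce peroxides. Peroxiredoxins do the same with electrons from thioredoxin, catalase splits hydrogen peroxide without a thiol, and superoxide dismutases make hydrogen peroxide from superoxide. NRF2, the product of Nfe2l2, activates many of these genes through antioxidant response elements (AREs), and KEAP1 marks NRF2 for degradation. The meibomian gland and the epidermis of the lid both make and store lipids that can be oxidized.

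The old female library stood apart from the other 3 before any member was looked at. Its log2 values correlated across 12073 genes with those of the other libraries at Pearson's r of 0.940 to 0.968, while the pairs without it lay between 0.985 and 0.988. Total coverage was 3.16 gigabases in the old female library and 3.78 to 3.91 in the others. Marker genes of the tissue of the lid differed too. The 14 meibocyte markers (cells of the gland that fill with lipid), all listed in every library, summed to 16267 and 5124.5 RPKM in old and young females and to 8652 and 11774 in old and young males. The 8 basal epidermal markers, also all listed, summed to 5720 RPKM in the old female and 14330 in the young female, and to 12282 in the old male and 10666 in the young male. Krt15 and Krt5 made up much of the basal sums. In females 2 of these 8 markers were at least 2-fold lower at 2 years, and the median log2 ratio was -0.46. Of 10 conjunctival markers 9 were listed, with sums of 2229 and 8192 RPKM in old and young females and of 7327 and 5209 in old and young males. Krt13 and Krt4 made up much of these sums, and the list was mixed in females, with 4 of the 9 at least 2-fold lower and 3 at least 2-fold higher at 2 years. The 11 of 12 suprabasal epidermal markers listed summed to 526 and 1941 RPKM in old and young females and to 1308 and 1814 in old and young males. Skeletal muscle (12 of 12 listed) summed to 1676 and 339 RPKM in old and young females and to 989 and 372 in old and young males. Fibroblast matrix markers (8 of 8 listed) summed to 241 and 31.1 RPKM in old and young females, and to 84.6 and 35.6 in old and young males. The macrophage list (6 of 7 listed) summed to 222 and 103 RPKM in old and young females and to 107 and 155 in old and young males, the adipocyte list (6 of 6) to 70.3, 42.5, 36.1 and 42.5 in the same order of libraries, the endothelial list (6 of 6) to 11.4, 1.34, 3.52 and 1.77, and the erythroid list (2 of 6) to 6.02, 4.54, 8.09 and 4.999. Kdr and Tek (endothelial), Adipoq, Plin1 and Lep (adipocyte) were missing from at least 1 library. The part of these lists in the differences below was not tested. In whole tissue, fewer cells of a type and less RNA per cell cannot be told apart.

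In females, 12 of the 48 members were at least 2-fold apart between the ages, beside 8.61% of the 12073 genes analysed. The old library was the higher one for 6 of them (12.5% of the members, beside 5.3% of all genes) and the lower one for the other 6 (12.5%, beside 3.31%). Fold differences are taken on log2(RPKM + 1), which understates those of low genes. The 6 higher members were Mgst1, Cat, Gstz1, Gpx3, Gpx2 and Sod3, and the 6 lower ones were Gsta4, Gsto1, Gsta2, Gsta1, Gstm1 and Gstt2, which are all cytosolic GSTs. With a pseudocount of 5 the low genes Gpx3, Sod3, Gsta1 and Gstt2 were no longer past 2-fold, and under quantile normalization Sod3 was not. In males 0 of 48 members were 2-fold apart, beside 1% of all genes, of which 0.795% were past 2-fold upward and 0.207% downward at 2 years. The median log2 ratio over the members was 0.06 in females and 0.01 in males, beside 0.08 and -0.01 over all genes analysed, and the SD over the members was 0.84 in females and 0.28 in males, beside 0.60 and 0.27. The age ratio had opposite signs in the sexes for 29 members (60.4%), beside 61.6% of all genes.

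**Figure D1:**
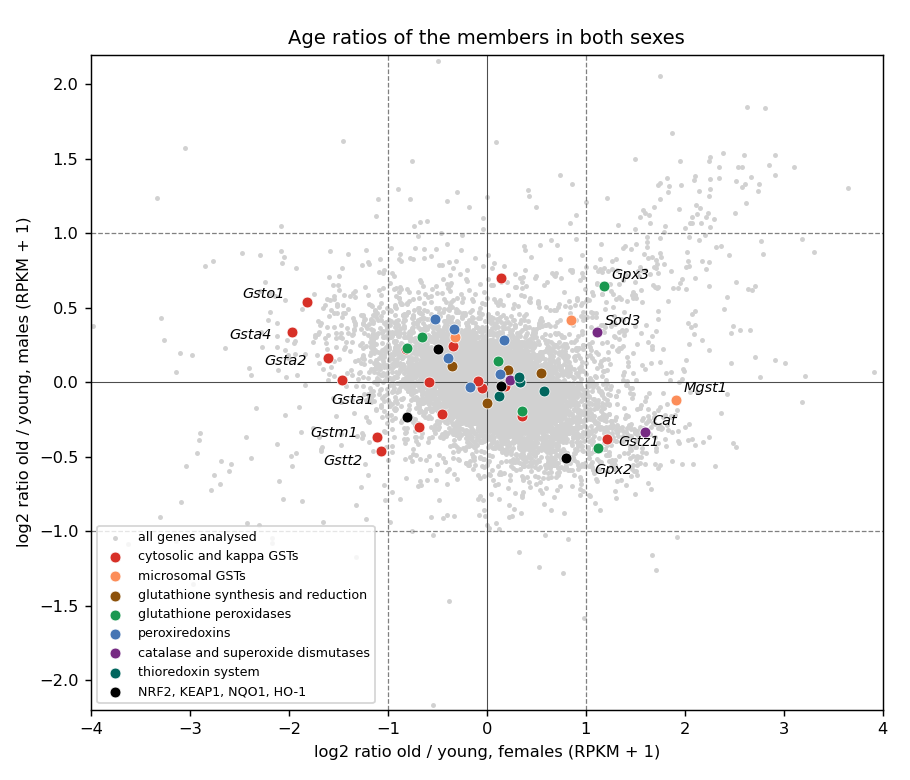
Each point is 1 gene, with its log2 ratio of old to young in females on the horizontal axis and in males on the vertical axis, both on RPKM + 1. Grey points are the 12073 genes analysed, of which 12 lie outside the axes, and coloured points are the 48 members by role. Dashed lines mark 2-fold, and the 12 labelled members are those past it in females, with 6 on each side, while no member is past it in males.

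The cytosolic GSTs included the gene of highest RPKM in 3 of the 4 libraries. Gsto1, on chromosome 19 from 47854989 to 47864788 of the mm10 build, encodes the omega-class transferase that reduces dehydroascorbate. It had 5934 and 20930 RPKM in old and young females, and 18023 and 12404 in old and young males. It ranked second in the old female library. Its share of the summed RPKM was 1.46% in the old and 4.75% in the young female, and 4.15% in the old and 2.97% in the young male. The log2 ratio of old to young was -1.82 in females and 0.54 in males, so the old female library was the lowest of the 4 and the young female the highest. Under quantile normalization, which gives each rank the same value in every library, the female ratio was -1.10. The male ratio was then 0.00 by construction, since Gsto1 ranked first in both male libraries, and other scalings gave 0.54 to 0.55.

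Gsta4, on chromosome 9 from 78191966 to 78209349, was second among the members. It encodes the alpha-class transferase that conjugates 4-hydroxynonenal, an aldehyde from peroxidized lipids. Its levels were 586 and 2294 RPKM in old and young females, and 1755 and 1386 in old and young males. The log2 ratios were -1.97 in females and 0.34 in males. Both transcripts thus had the same order over the libraries, with the young female highest and the old female lowest. Krt15, a keratin of basal cells, had that order as well, at 2327 and 7744 RPKM in old and young females and 6059 and 4865 in old and young males. Only 3 of the 8 basal epidermal markers had the full order of Gsto1 and Gsta4 over the 4 libraries. Krt13, a conjunctival keratin, shared it too, at 392 RPKM in the old and 3842 in the young female, and 3080.5 in the old and 2286 in the young male, although 3 of the 9 conjunctival markers were past 2-fold upward in old females. Their part in these differences was not tested.

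Other alpha-class genes were lower in the old female library too. Gsta3 had 88.1 RPKM in the old and 156 in the young female, and 123 in the old and 106 in the young male (log2 -0.82 and 0.22). Gsta2 had 6.07 RPKM in the old and 20.6 in the young female, against 15.4 in the old and 13.7 in the young male, with log2 ratios of -1.61 and 0.16. Gsta1 had 0.395 RPKM in the old and 2.84 in the young female, and 1.87 in the old and 1.84 in the young male (log2 -1.46 and 0.01), and its female ratio was -0.54 with a pseudocount of 5 and -2.57 with 0.1. All 4 alpha-class genes shared 1 order, with the young female library highest, then the old male, the young male and the old female. That order was found in 12.4% of all genes analysed, and for Gsta1 the male libraries were almost equal. Gsta4, Gsta1 and Gsta2 lie in that order on chromosome 9, with 21319 bases between Gsta4 and Gsta1 and 88336 between Gsta1 and Gsta2, while Gsta3 lies on chromosome 1.

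Gsta1 and Gsta2 are close copies, so their values are uncertain as separate measurements. Their coding sequences in the GENCODE vM21 annotation were 98.0% identical over 666 aligned bases, with an unbroken identical run of 196 bases, and the sources used here do not give how the authors assigned reads that fit both. Gsta4 was 68.9% identical to either. The stretches upstream of the Gsta1 and Gsta2 starts (RefSeq, GRCm38.p6, the build also called mm10) were 77.0% identical over 239 aligned bases. The 150 bases nearest each start are shown because both genes had the same order over the libraries, with the longest run that they share in capitals, 29 bases long.
Gsta2, chr9:78347146-78347295, minus strand: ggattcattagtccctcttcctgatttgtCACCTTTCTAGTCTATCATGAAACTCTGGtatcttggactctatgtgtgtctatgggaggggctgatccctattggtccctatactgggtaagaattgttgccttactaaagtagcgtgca
Gsta1, chr9:78230519-78230668, plus strand: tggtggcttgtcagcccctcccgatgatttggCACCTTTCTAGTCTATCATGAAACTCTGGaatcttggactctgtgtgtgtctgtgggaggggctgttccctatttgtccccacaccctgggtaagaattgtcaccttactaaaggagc

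Of the 7 mu-class and theta-class GSTs compared, 4 (Gstm1, Gstm2, Gstm4 and Gstt2) had both old libraries below both young ones, beside 13% of all genes. Over the 48 members compared the share was 12.5%, near that of all genes. Gstm1, on chromosome 3 from 108012250 to 108017973, had 39.8 RPKM in the old and 87.3 in the young female, and 58.1 in the old and 75.3 in the young male (log2 -1.11 and -0.37). Gstt2 had 2.14 RPKM in the old and 5.61 in the young female, and 3.27 in the old and 4.89 in the young male (log2 -1.07 and -0.46). Gstm2 and Gstm4, neighbours of Gstm1, had log2 ratios of -0.69 and -0.45 in females and -0.30 and -0.21 in males, whereas Gstm5 at the far end of the cluster had -0.09 and 0.01. The mu-class coding sequences were 72.7% to 86.4% identical, with no identical run longer than 60 bases. Among the theta-class neighbours on chromosome 10, Gstt1 had 0.19 and -0.02 and Gstt3 -0.58 and 0.00.

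Gstz1 alone among the cytosolic GSTs was past 2-fold upward in old females. It encodes maleylacetoacetate isomerase, an enzyme of tyrosine breakdown. Its levels were 58.4 RPKM in the old and 24.5 in the young female, and 34.0 in the old and 44.6 in the young male, with log2 ratios of 1.22 and -0.38. The old female library was thus highest and the young female lowest. Gstk1, Gstp1 and Gsto2 stayed within 0.36 of 0 on the log2 scale in both sexes, as did Gstm5 and Gstt1. Gstp2 had a ratio of 0.15 in females and 0.70 in males (past 2-fold with a pseudocount of 0.1), but its coding sequence was 98.1% identical to that of Gstp1, with an identical run of 300 bases, so its level is uncertain. Across the 17 cytosolic and kappa genes compared, 13 were lower and 4 higher in the old female library, where 59.1% of all genes analysed were higher. Their median was -0.58 beside 0.08 over all genes. In males 8 of the 17 had a negative and 9 a positive ratio, with a median of 0.00, and 47.0% of all genes were higher in the old library. The summed level of all 19 cytosolic and kappa members was 6850 RPKM in the old and 23678 in the young female, and 20162 in the old and 14193 in the young male. Without Gsto1 and Gsta4 the sum was 330 RPKM in the old and 454 in the young female, and 385 in the old and 403 in the young male.

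**Figure D2:**
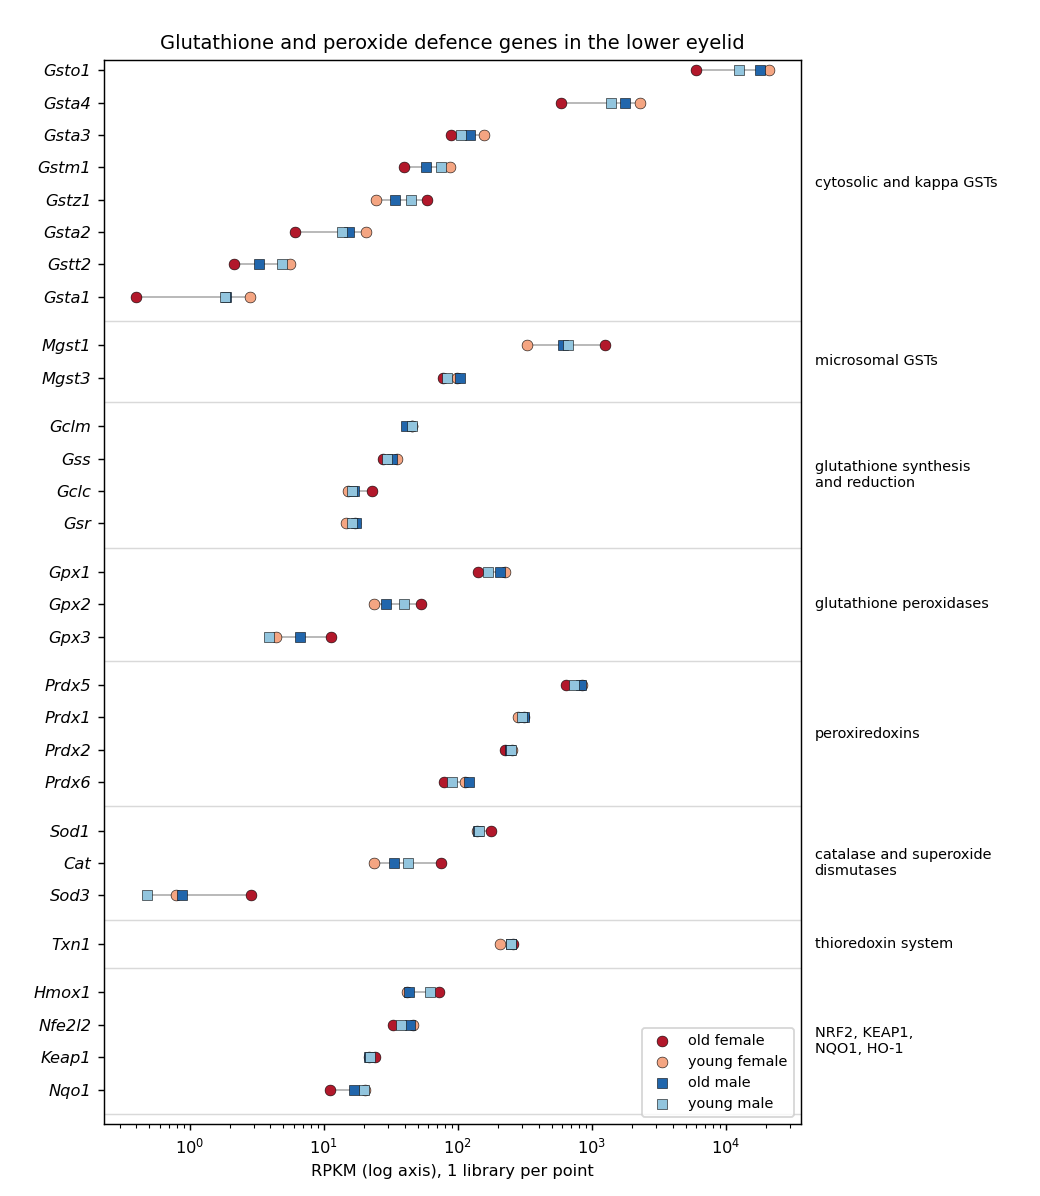
RPKM on a log axis for the 29 members described singly, by role, with 1 point per library (dark red circle old female, orange circle young female, blue square old male, light blue square young male) and a grey line over the range. Gsto1 lies between 5934 and 20930 RPKM, and the old female library is at the low end for Gsto1, Gsta4, Gsta2 and Gsta1 and at the high end for Mgst1, Cat, Gstz1 and Gpx2.

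Mgst1 differed in the other direction from the abundant cytosolic GSTs. It lies on chromosome 6 from 138140537 to 138156752 and encodes a transferase of the endoplasmic reticulum and outer mitochondrial membrane that also reduces lipid peroxides. It had 1244 RPKM in the old and 330 in the young female, and 607 in the old and 658 in the young male. The old female library was the highest and the young female the lowest. The log2 ratios were 1.91 in females, the largest upward ratio among the members, and -0.12 in males. Elovl3, a fatty acid elongase and meibocyte marker, had the same order over the libraries, at 842 and 177 RPKM in old and young females and 348 and 449 in old and young males. Mgst3 had 77.9 RPKM in the old and 97.9 in the young female, and 103 in the old and 83.4 in the young male, with log2 ratios of -0.32 and 0.31. Mgst2 had 0.85 and 0.42, higher in the old library of each sex.

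The upstream sequences of Mgst1 and Gsto1 are shown because these are the abundant members with opposite differences in females. Each runs over the 250 bases before the RefSeq start on GRCm38.p6, and capitals mark the ARE core TGACNNNGC, which in Mgst1 lies on the opposite strand and is absent from this stretch of Gsto1. RefSeq holds a second start for Mgst1, which is not shown.
Mgst1, chr6:138140277-138140526, plus strand: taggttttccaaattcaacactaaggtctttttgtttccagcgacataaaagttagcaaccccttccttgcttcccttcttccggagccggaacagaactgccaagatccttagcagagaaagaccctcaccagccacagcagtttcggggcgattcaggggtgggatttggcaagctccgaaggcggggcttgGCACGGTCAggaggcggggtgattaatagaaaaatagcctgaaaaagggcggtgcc
Gsto1, chr19:47854723-47854972, plus strand: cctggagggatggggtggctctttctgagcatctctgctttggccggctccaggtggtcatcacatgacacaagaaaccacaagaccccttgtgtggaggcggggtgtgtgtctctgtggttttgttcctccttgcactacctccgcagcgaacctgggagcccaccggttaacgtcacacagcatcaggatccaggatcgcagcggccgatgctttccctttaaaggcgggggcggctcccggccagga

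The ARE core was searched on both strands in the 250 bases before each start. RefSeq starts were matched for 43 of the 50 members. The other 7, Gclc, Gsr, Gsta4, Gstt2, Hmox1, Prdx6 and Sod3, were not searched. The letters TGACNNNGC stood in 9 of these 43 members, or 20.9%, beside 11.5% of 27025 genes and 10.2% of 32851 starts in the table. The 9 were Gclm, Gsta3, Gstm5, Gstm7, Mgst1, Nfe2l2, Prdx1, Sod1 and Txnrd1. The letters of the AP-1 site, TGANTCA, which can overlap the ARE core, stood in 5 members (11.6%, beside 7.82% of all genes), namely Gstm5, Gstp1, Gstp2, Mgst2 and Prdx1. A match describes letters only. Windows around the ARE core of members whose levels are given here are shown with the core in capitals, in the direction of the gene.
Gclm, chr3:122245412-122245442, plus strand: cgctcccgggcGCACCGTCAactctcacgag
Prdx1, chr4:116685455-116685485, plus strand: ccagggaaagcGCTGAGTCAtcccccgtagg
Nfe2l2, chr2:75704884-75704913, minus strand: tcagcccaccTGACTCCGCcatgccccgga
Sod1, chr16:90220695-90220725, plus strand: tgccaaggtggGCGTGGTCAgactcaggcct
Gsta3, chr1:21240453-21240483, plus strand: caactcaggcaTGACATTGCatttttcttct
In Prdx1 the ARE core overlaps an AP-1 site. In females the log2 age ratios of these 5 genes ranged from -0.82 for Gsta3 to 0.34 for Sod1, against 1.91 for Mgst1, which also holds the core.

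The genes that make and restore glutathione differed little. Gclc, the catalytic subunit of glutamate-cysteine ligase, had 22.8 RPKM in the old and 15.2 in the young female, and 16.9 in the old and 16.1 in the young male (log2 0.55 and 0.07). Gclm, its modifier subunit, had 45.4 and 45.3 RPKM in old and young females and 41.3 and 45.6 in old and young males (log2 0.01 and -0.14). Gss, glutathione synthetase, had 27.4 and 35.4 RPKM in old and young females and 32.0 and 29.6 in old and young males (log2 -0.36 and 0.11). The spread over the 4 libraries was thus small for Gclm and wider for Gclc, where the old female library was highest. Gsr, glutathione reductase, had 17.1 and 14.6 RPKM in old and young females and 17.3 and 16.3 in old and young males (log2 0.21 and 0.08). The summed level of these 4 genes was 113 RPKM in the old and 111 in the young female, and 108 in both male libraries.

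Glutathione peroxidases diverged from each other in females. Gpx1, the cytosolic enzyme and the most abundant of the family, had 140.8 RPKM in the old and 223 in the young female, and 206 in the old and 167 in the young male (log2 -0.66 and 0.31). Gpx2, the form of epithelia, had 53.1 RPKM in the old and 23.8 in the young female, and 28.9 in the old and 39.6 in the young male (log2 1.13 and -0.44). The old female library was therefore the lowest for Gpx1 and the highest for Gpx2. Gpx3, the secreted form, had 11.2 RPKM in the old and 4.38 in the young female, and 6.67 in the old and 3.90 in the young male. Its log2 ratios were 1.19 and 0.65, higher at 2 years in both sexes. Gpx4, which reduces peroxides within phospholipids, had ratios of 0.35 and -0.19, Gpx8, a peroxidase of the endoplasmic reticulum, -0.81 and 0.23, and Gpx7, of the same compartment, 0.11 and 0.14.

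The abundant peroxiredoxins varied less than the GSTs. Prdx5, found in mitochondria, peroxisomes and cytosol, had 638 RPKM in the old and 835 in the young female, and 823 in the old and 736 in the young male (log2 -0.39 and 0.16). Prdx1 had 310.1 and 282 RPKM in old and young females and 311 and 300.1 in old and young males (log2 0.14 and 0.05). Prdx2, like Prdx1 a cytosolic enzyme recycled by thioredoxin, had 226 and 254 RPKM in old and young females and 244 and 250.4 in old and young males (log2 -0.17 and -0.04). All 4 libraries thus lay close together for Prdx1 and Prdx2. Prdx6, which takes electrons from glutathione instead, had 78.2 RPKM in the old and 113 in the young female, and 122 in the old and 90.8 in the young male (log2 -0.52 and 0.42). Prdx3, the mitochondrial form, had -0.33 and 0.36, and Prdx4, of the endoplasmic reticulum, 0.17 and 0.28. Of the 6 genes, 0 were 2-fold apart in either sex, and their summed level was 1322 and 1562 RPKM in old and young females and 1584 and 1443 in old and young males.

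Catalase was the more abundant of the 2 genes past 2-fold among the enzymes that need no thiol. Cat lies on chromosome 2 from 103453904 to 103485153, and its product works in peroxisomes. It had 74.3 RPKM in the old and 23.9 in the young female, and 33.5 in the old and 42.5 in the young male. The old female library was the highest and the young female the lowest, with log2 ratios of 1.60 in females and -0.33 in males. Sod3, the extracellular superoxide dismutase, was low, at 2.87 RPKM in the old and 0.785 in the young female, and 0.875 in the old and 0.483 in the young male (log2 1.12 and 0.34). Sod1, the cytosolic form, had 175 RPKM in the old and 139 in the young female, and 142 in both male libraries (log2 0.34 and 0.00), and Sod2, the mitochondrial form, had ratios of 0.23 and 0.01.

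Of the thioredoxin system, Txn1 itself had 258 RPKM in the old and 205 in the young female, and 248 in both male libraries (log2 0.33 and 0.00). The reductases Txnrd1, Txnrd2 and Txnrd3 had ratios of 0.13, 0.32 and 0.57 in females and -0.09, 0.03 and -0.06 in males. All 4 genes were thus higher in the old female library, by less than 2-fold, where 59.1% of all genes analysed were higher at any size. The NRF2 group was mixed. Nfe2l2 had 32.6 RPKM in the old and 46.5 in the young female, and 44.1 in the old and 37.7 in the young male (log2 -0.50 and 0.22). Keap1 had 23.9 and 21.6 RPKM in old and young females and 21.6 and 22.0 in old and young males (log2 0.14 and -0.02). The NRF2 targets Nqo1 and Hmox1 differed in opposite directions in females. Nqo1, a quinone reductase, had 11.1 RPKM in the old and 20.3 in the young female, and 16.8 in the old and 19.9 in the young male (log2 -0.81 and -0.23). Hmox1, the heme oxygenase HO-1, had 72.8 RPKM in the old and 41.5 in the young female, and 43.2 in the old and 61.8 in the young male (log2 0.80 and -0.51).

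Members with the order of the meibocyte markers and members with the reverse order were counted, a description chosen after the values were seen. Of 14 meibocyte markers, 13 had the old female library highest, followed by the young male, the old male and the young female. The same order was found in 17.7% of all genes analysed and in 8 of 48 members (16.7%), which were Cat, Gpx2, Gstk1, Gstz1, Hmox1, Mgst1, Sod1 and Txnrd3. The reverse order was found in 12.4% of all genes and in 12 members (25.0%), which were Gpx1, Gpx8, Gss, Gsta1, Gsta2, Gsta3, Gsta4, Gstm5, Gsto1, Gstt3, Nfe2l2 and Prdx5. Of the 8 basal epidermal markers 3 and of the 9 conjunctival markers 4 had that reverse order. The share of members with the first order was close to that of all genes. Some members had their order only through male libraries that were almost equal. Sod1 had 142.4 RPKM in the old and 142.43 in the young male, and under median scaling its male log2 ratio was 0.01. In the reverse order the male log2 ratios of Gstm5, Gstt3 and Gsta1 were 0.006, 0.003 and 0.013.

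**Figure D3:**
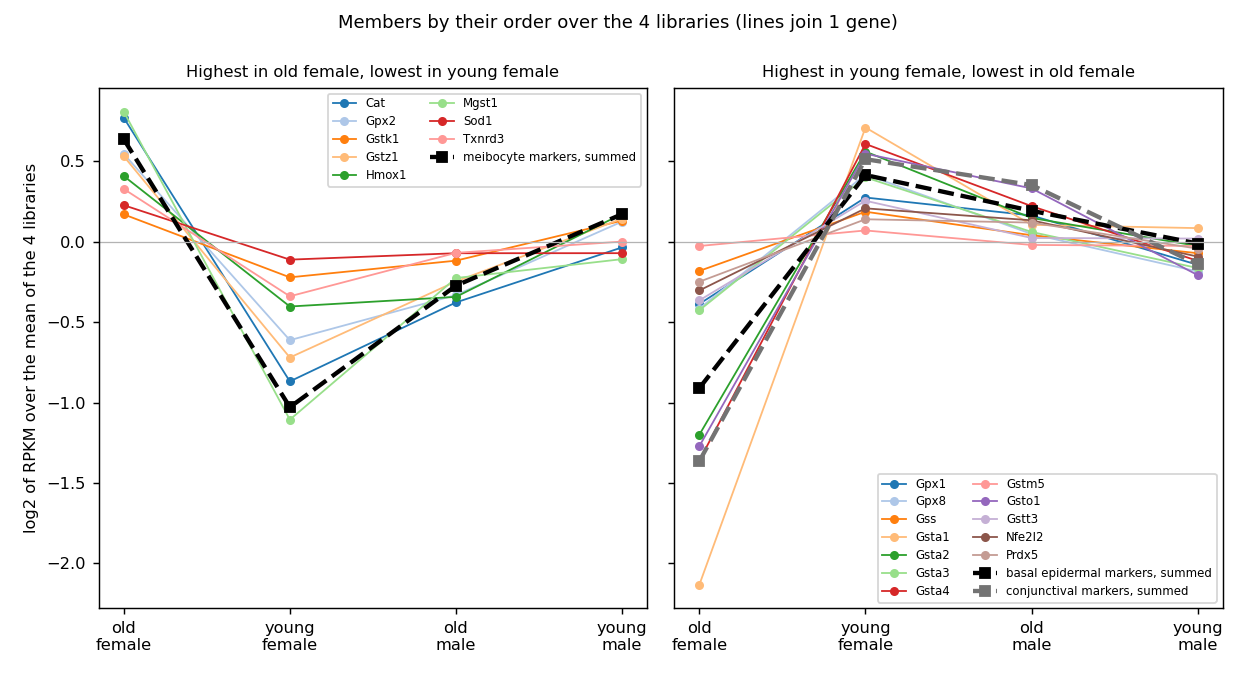
The log2 of each gene's RPKM over its mean of the 4 libraries, in the order old female, young female, old male and young male. The left panel holds the 8 members with the full order old female, young male, old male and young female, from highest to lowest. Dashed in it are the summed meibocyte markers. The right panel holds the 12 members with the reverse order and, dashed, the summed basal epidermal and conjunctival markers. Members with the same female libraries at the ends but the male libraries in the other order are not shown. Genes were placed in the panels by these values, so the shared shape is not a finding.

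Some members lay on the same side with age in both sexes. Both old libraries were above both young ones for 11 members (22.9%, beside 18.6% of all genes), which were Gclc, Gpx3, Gsr, Gstp2, Mgst2, Prdx1, Prdx4, Sod2, Sod3, Txn1 and Txnrd2. Both were below for 6 members (12.5%, beside 13% of all genes), which were Gstm1, Gstm2, Gstm4, Gstt2, Nqo1 and Prdx2. Txn1 was among the 11 only by 248.07 RPKM in the old against 247.56 in the young male. Under quantile normalization its male log2 ratio was -0.01. In a limma fit of log2(RPKM + 1) with age and sex as terms over all 12073 genes, 0 members and 0% of all genes had an adjusted p under 0.05. Without adjustment, p was under 0.05 for 353 genes, 3 of them members. These were Gpx3, with an averaged log2 difference of 0.92 ± 0.21 (SE, 2 old against 2 young libraries), Gstt2 with -0.77 ± 0.23 and Mgst2 with 0.64 ± 0.21, each with the same direction in both sexes and an adjusted p of 1 by limma. For Gsto1 the averaged difference was -0.64 ± 1.81 and for Mgst1 0.90 ± 0.69, with the sexes on opposite sides of 0 for both genes. The fit has 1 residual degree of freedom, which is the difference of the age ratio between the sexes. The SE and p rest on that difference and on a variance trend over all genes, not on replicates. A gene with opposite ratios in the sexes, such as Gsto1, thus has a large SE by construction. By the same construction a low p goes with similar ratios in the sexes. The shared direction of Gpx3, Gstt2 and Mgst2 is therefore no added support. Differences between single libraries may also be technical. A fit without the old male library, which also dropped the sex term and set the old female library alone against 2 young ones, called 166 genes and 0 members, with the lone library assumed to vary like the others.

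Males and females were also compared at each age, in the same 4 libraries. At 3 months 0 members were 2-fold apart, beside 1.28% of all genes (0.928% with the male past 2-fold upward and 0.348% downward). The young male library had less Gsto1 (log2 ratio of male to female -0.75) and Gsta4 (-0.73) and more Mgst1 (0.996, just under 2-fold), Gstz1 (0.84), Cat (0.81) and Gpx2 (0.71) than the young female. At 2 years 7 members were 2-fold apart, beside 3.64% of all genes. The male library was the higher one for 4, namely Gsto1 (1.60), Gsta4 (1.58), Gsta2 (1.22) and Gsta1 (1.04), and the lower one for 3, Cat (-1.13), Sod3 (-1.05) and Mgst1 (-1.03). Over all genes these shares were 1.88% and 1.76%. These ratios share their libraries with the age ratios above.

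The authors' deposited table of genes higher in old females lists 1983 genes, 5 of them members, Gpx3, Sod3, Gpx2, Cat and Gstz1, with folds of 2.57, 3.66, 2.23, 3.12 and 2.38. The authors' deposited table of genes lower in old females lists 750 genes, 3 of them members, Gsta2, Gstt2 and Gsta1, with signed folds of -3.39, -2.62 and -7.17. The authors' deposited table of genes higher in old males lists 673 genes, 1 of them a member, Gstp2, with a fold of 2.18. The authors' deposited table of genes lower in old males lists 315 genes and 0 members. For scale, the members were 50 of the 15816 genes listed over the libraries, and the authors' Bonferroni values are 23650 times their p-values. The factor of a Bonferroni adjustment is the number of tests, here 23650. How many members were among those tests is not given, so these counts are not read as a result about the members. Mgst1, Gsto1, Gsta4 and Gstm1 are in none of these tables, although they were past 2-fold in females. Every gene in the authors' deposited tables is at least 2-fold apart, and the highest Bonferroni value among them is 9.997e-05. The sources used here give no replicate values behind those p-values.

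Of 90 other genes of the pathway in 6 lists, 80 were compared. Of these, 8.75% (7 genes) were 2-fold apart in females, near the 8.61% of all genes, and 1.25% (1 gene) in males, near the 1% of all genes. Of 16 genes compared for glutathione turnover and transport, 2 were past 2-fold upward and 1 downward in old females, and 1 upward in old males. Dpep1, a dipeptidase of glutathione breakdown, had 4.40 RPKM in the old and 0.345 in the young female, and 1.81 in the old and 0.373 in the young male (log2 2.00 and 1.03). Oplah, which recycles oxoproline from glutathione, had 31.8 and 10.9 RPKM in old and young females and 14.2 and 15.4 in old and young males (log2 1.46 and -0.10). The old female library was thus highest for both, and of this pair only Dpep1 was higher in the old than in the young male. Of 9 genes for NADPH supply, 1 was 2-fold higher in old females, Me1 (malic enzyme), at 111 and 53.7 RPKM in old and young females and 68.1 and 97.4 in old and young males, and Nadk, NAD kinase, followed with a log2 ratio of 0.97.

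Of 17 thioredoxin and glutaredoxin partners, 1 was higher, Msrb3 (a methionine sulfoxide reductase, log2 1.29 in females and -0.55 in males), and 1 lower, Txnip (which binds thioredoxin, -1.03 and -0.33). Of 18 NRF2 partners and further targets, 0 were 2-fold apart. Fth1, the ferritin heavy chain, had 334 and 653 RPKM in old and young females and 595 and 427 in old and young males (log2 -0.96 and 0.48), and Akr1b8 had ratios of 0.81 and 0.24. Among 10 genes for peroxide and superoxide sources, Cybb (a subunit of the phagocyte NADPH oxidase) had log2 ratios of 0.81 in females and -0.07 in males. Of 10 selenoprotein synthesis genes, 0 were 2-fold apart, with Sepp1, the selenium carrier of plasma, at 0.72 and 0.33 and Scly, selenocysteine lyase, at -0.43 and 0.06. In males 0 genes of these last 4 lists or of the NADPH list were 2-fold apart. The list medians in females were 0.33 for turnover, 0.34 for NADPH, 0.16 for thioredoxin partners, 0.15 for NRF2, 0.40 for sources and 0.09 for selenoproteins, beside 0.08 over all genes.

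**Figure D4:**
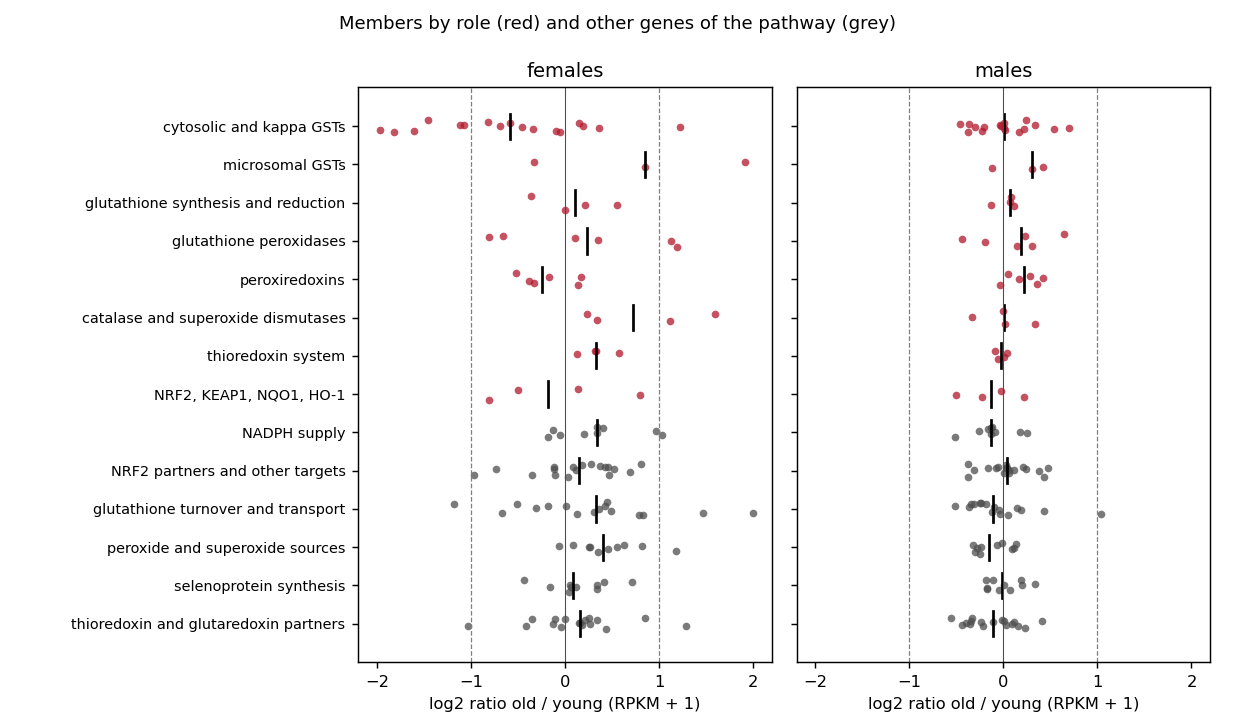
Log2 ratio of old to young (RPKM + 1) for each gene compared, in females on the left and males on the right. Red points are members by role, grey points the other genes of the pathway by list, black bars the medians and dashed lines 2-fold. Cytosolic GSTs reach -1.97 and Mgst1 reaches 1.91 in females, and no red point passes a dashed line in males.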

How the data were processed

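Lower eyelid RNA was sequenced by Illumina protocols, per the labels. TopHat, Cufflinks and the mm10 build are named in the submitters' processing notes, with no role or version. The counting rule, strand setting and gene models are not given here. The authors deposited 1 table per library with an RPKM value, normalized for gene length and library total, and a second column of whole numbers headed raw count. That column sums to over 3 gigabases per library and, for this size, was read as summed coverage deposited by the authors, not as reads. Relative to the young male library it follows RPKM per gene by 1 factor per library (0.829 to 1.03). Reads would do so too, so the factor does not tell the readings apart. The column was not tested as counts. The depth in reads is unknown, so values carry no interval for counting error. Genes below a low RPKM floor are not listed. The authors also deposited comparison tables with a signed fold, scored negative where lower at 2 years, and p-values. Their fold score and p-values, per the file headers, are only quoted.

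Here, 2 repeated symbols were left out, and genes listed in all 4 libraries with a mean of at least 1 RPKM were compared on log2(RPKM + 1). Single differences have no test. The averaged age effect came from limma 3.58.1 in R 4.3.3, with a variance trend and Benjamini-Hochberg adjustment over all genes. The fit was also run on simulated data with the same age effect in both sexes. In the data 61.6% of all genes had opposite signs in the sexes, so that run does not show how the fit behaves here. Promoters came from RefSeq (GRCm38.p6) and coding sequences from GENCODE vM21, aligned with Biopython 1.88. Members described singly were the 12 of highest mean, those 2-fold apart with age in a sex, and the 12 listed singly, and of other lists the 2 genes of largest female ratio. The members and lists were chosen with earlier results of these data known. Alternatives were other pseudocounts, filters and scalings, and libraries left out. The result for 1 gene of these lists is not reported here.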

Additional observations from a re-analysis of the deposited data

Results flagged for a closer look

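For 7 of the 29 members described singly, the age ratio had opposite signs in the sexes and was at least 0.32 on the log2 scale in each, a size chosen after the values were seen. With 1 library per group this difference between the sexes was not tested, and 19 of the 29 had opposite signs at any size, where 61.6% of all genes did. The log2 ratio in females minus that in males was -2.36 for Gsto1 (-1.82 and 0.54), -2.31 for Gsta4 (-1.97 and 0.34) and -0.94 for Prdx6 (-0.52 and 0.42), which were lower in the old female and higher in the old male library. It was 1.93 for Cat (1.60 and -0.33), 1.60 for Gstz1 (1.22 and -0.38), 1.57 for Gpx2 (1.13 and -0.44) and 1.30 for Hmox1 (0.80 and -0.51), which were higher in the old female and lower in the old male library. The male ratio of Gsto1 was 0.00 under quantile normalization, which sets it so for a gene that ranks first in both libraries.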

How the results depend on the processing

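No paired analysis was possible because the labels give no replicate numbers and each group has 1 library, and the female comparison has no form without the old female library. The 12 members 2-fold apart in females kept their sign in all 72 recomputed values (6 pseudocounts and scalings each), and 67 stayed past 2-fold. The kept sign was largely fixed in advance, since a pseudocount cannot change it. Median scaling moved the female median over all genes only from 0.0751 to 0.0088. These values do not show whether another old female library would give the same. Values no longer past 2-fold were Gpx3 (0.79), Gsta1 (-0.54), Gstt2 (-0.57) and Sod3 (0.44) with a pseudocount of 5, and Sod3 (0.91) under quantile normalization. The median over the members in females was -0.0502 under quantile normalization, against 0.06. In males 1 member, Gstp2, was 2-fold higher with a pseudocount of 0.1, against 0. In limma 0 members passed under every setting, and all genes passing ranged from 0 to 166 when 1 library was left out, with age as the only term (166 without the old male library). Of 348 recomputed gene values 27 moved by over 0.1, most with another pseudocount. A total of 7 changed sign, all of genes within 0.01 of 0 (Gclm in females, Sod1 and Txn1 in males), and Gsto1 in males was 0.00 under quantile normalization by construction.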

Other observations

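Of 6 pairs of neighbouring genes of a family, some differed widely in level and others little. Gsto1 and Gsto2 lie 756 bases apart on chromosome 19, with coding sequences 71.8% identical and no identical run over 24 bases, and averaged 14323 and 1.24 RPKM over the 4 libraries. Gsta4 and its neighbour Gsta1 averaged 1505 and 1.73 RPKM. Gstp1 and Gstp2, 2375 bases apart, averaged 49.9 and 2.10 RPKM, but 98.1% of their coding sequence is identical, so how their reads were divided bears on both values. Gsta1 and Gsta2 averaged 1.73 and 13.9 RPKM, with the same limit. Gstm1 and Gstm2 averaged 65.1 and 28.5 RPKM, and Gstt1 and Gstt3 7.19 and 15.9 RPKM.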
